A study of Rattus norvegicus with 36 samples.

Results

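C-type lectin receptors were followed in the lungs of rats exposed to DQ-12, a reference quartz dust (crystalline silica), and of rats given the vehicle. The set has 8 genes of the 25597 gene names on the array, namely LOC689757, Clec4e, Clec4d, Clec7a, Clec4a1, Clec4a3, Clec10a, and Cd209e. They were chosen by name, with the exposure effects at D1, D30, and D180 already known, so these effects are given as a description without a test. All 8 passed the filter on low signal, which kept 23940 genes. Each group had 6 female Sprague Dawley rats, aged 13 weeks when instilled. DQ-12 rats received 10 mg of dust per rat in saline by intratracheal instillation, vehicle rats received the saline alone, and both were anesthetized for it. Lungs were taken at D1, D30, or D180, each rat was sampled once, and the RNA of the accessory lobe was hybridized to an Agilent array of 1 color, which gave 36 arrays. A single bolus was given, and per the study's methods the dust had been ground again before use. RNA came from whole lung tissue, in which fewer cells of a type and less RNA per cell cannot be told apart.

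C-type lectin receptors are membrane proteins whose extracellular lectin fold binds sugars, lipids, or proteins of microbes and damaged cells. On macrophages, neutrophils, and dendritic cells, the activating receptors signal through an ITAM, a tyrosine motif that recruits the kinase Syk and then the CARD9, BCL10, and MALT1 complex, which leads to cytokine and chemokine genes. Inhibitory relatives carry an ITIM that recruits phosphatases, and other members take up glycoproteins without strong signaling of their own.

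Of the 8 genes, 4 lie in one gene cluster of chromosome 4, and their promoters are shown because these genes were higher together in DQ-12 lungs. The sequences run from 250 bases before to 50 bases after the RefSeq transcription start (build GRCr8). Capitals mark matches to GAGGAA, the core bound by PU.1 and other ETS factors of myeloid cells, on either strand (TTCCTC on the other strand), and in Clec4e also 1 match to TTGCNNAA, a C/EBP motif.
Clec4a1, chr4:157845561-157845860, plus strand: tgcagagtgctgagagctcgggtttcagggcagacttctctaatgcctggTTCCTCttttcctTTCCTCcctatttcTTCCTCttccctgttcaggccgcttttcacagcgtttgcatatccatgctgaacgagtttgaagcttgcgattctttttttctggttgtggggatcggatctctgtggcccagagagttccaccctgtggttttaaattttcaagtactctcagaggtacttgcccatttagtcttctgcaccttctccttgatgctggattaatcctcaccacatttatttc
Clec4a3, chr4:157886508-157886807, plus strand: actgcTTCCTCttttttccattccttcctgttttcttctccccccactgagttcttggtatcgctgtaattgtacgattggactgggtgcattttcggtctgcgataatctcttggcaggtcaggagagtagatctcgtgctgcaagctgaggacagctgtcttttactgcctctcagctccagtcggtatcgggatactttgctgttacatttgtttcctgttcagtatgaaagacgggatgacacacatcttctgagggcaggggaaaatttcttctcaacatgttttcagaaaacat
Clec4d, chr4:158275093-158275392, plus strand: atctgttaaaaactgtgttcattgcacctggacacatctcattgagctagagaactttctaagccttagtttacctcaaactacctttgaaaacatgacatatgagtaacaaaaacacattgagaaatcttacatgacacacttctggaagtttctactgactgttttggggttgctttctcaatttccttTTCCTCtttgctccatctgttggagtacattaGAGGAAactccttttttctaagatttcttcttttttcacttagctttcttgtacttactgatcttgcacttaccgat
Clec4e, chr4:158298418-158298717, minus strand: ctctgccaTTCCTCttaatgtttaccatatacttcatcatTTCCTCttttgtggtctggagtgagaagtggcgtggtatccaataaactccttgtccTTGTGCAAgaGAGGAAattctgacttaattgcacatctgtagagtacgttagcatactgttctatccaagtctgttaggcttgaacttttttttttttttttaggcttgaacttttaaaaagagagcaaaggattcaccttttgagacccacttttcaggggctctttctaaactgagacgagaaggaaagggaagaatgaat
GAGGAA was found 3 times in the Clec4a1 window, 1 time in Clec4a3, 2 times in Clec4d, and 3 times in Clec4e. It was not found in the windows of LOC689757, Clec7a, and Cd209e, and Clec10a had no entry in the promoter table. Of 33469 rat promoter windows of the same length, 27.6% held GAGGAA, 10.6% held TTGCNNAA, and 7.3% held TGANTCA, the AP-1 motif, which none of the 7 windows held. All 3 motifs were searched on both strands. These matches describe the letters only, since binding was not measured.

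LOC689757 is described on the array as similar to osteoclast inhibitory lectin, and RefSeq now lists it as Clec2d2l1. Its family (Clec2d) encodes ligands of the Klrb1 receptors of natural killer cells. It was measured by 1 probe. Its relative LOC689770 (Clec2d2l2 in RefSeq) lies near it and is measured by a probe that overlaps the same stretch of the transcript, so both probes are shown, with array coordinates on build rn4. Capitals mark the 4 bases that differ over the 40 shared bases.
LOC689757, chr4:165853013-165853072, minus strand: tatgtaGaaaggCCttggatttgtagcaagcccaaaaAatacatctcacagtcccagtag
LOC689770, chr4:165910606-165910665, minus strand: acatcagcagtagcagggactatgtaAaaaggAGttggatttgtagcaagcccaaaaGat
The LOC689757 probe could therefore also bind RNA of its relative. A probe of another relative, LOC689800, differed from it at 10 of 60 bases.

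The proportion of probes well above background was 51.5 to 75.5% per array, and the median correlation among the 6 arrays of a group was 0.973 to 0.981. Lung markers were present, and all 8 alveolar epithelium markers and all 6 endothelium markers were tested. A pair of rats stood apart by skeletal muscle markers, with a mean log2 signal over 4 genes of 9.45 in 1 DQ-12 rat at D1 (the next highest of the group was 6.56) and 10.2 in 1 vehicle rat at D180 (next highest 6.46). Without the first, the log2 FC at D1 was 2.42 for LOC689757, 2.05 for Clec4e, and -1.42 for Cd209e. Without the second, those at D180 were 4.07, 2.34, and -2.10, respectively. At D1, all 6 DQ-12 arrays were scanned on a day shared with only 1 vehicle array, so scan day and exposure can hardly be separated there. Differences within shared scan days are therefore printed for the 8 receptors, and the counts of the other gene lists are also given with scan day as a block. At D30, the first such difference sets 1 DQ-12 array against 4 vehicle arrays and the second 5 against 2. At D180, the first sets 3 against 3 and the second only 1 against 1.

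LOC689757 was the receptor gene with the largest difference between DQ-12 and vehicle lungs at D180. At D1 its normalized log2 signal ran from 3.57 to 4.73 (median 4.40) in vehicle rats and from 6.14 to 7.03 (median 6.69) in DQ-12 rats. The D30 range was from 4.02 to 5.64 (median 4.70) and from 6.26 to 7.51 (median 6.66), and at D180 from 4.26 to 5.42 (median 4.84) and from 8.16 to 9.84 (median 8.84), respectively. No DQ-12 rat overlapped with the vehicle rats at any of the 3 time points, and all were higher.
The log2 FC was 2.33 ± 0.28 (SE, n = 6 per group) at D1, 1.95 ± 0.28 at D30, and 4.08 ± 0.28 at D180, or 5.01-fold, 3.86-fold, and 16.9-fold. The effect at D180 exceeded that at D30 by 2.13 (95% interval 1.32 to 2.94), whereas D30 and D1 differed by -0.38 (95% interval -1.19 to 0.43). The probe was well above background on 4 of 6 vehicle arrays at D1 and at D30 and on all other arrays. Within shared scan days the difference was 1.88 at D1, 1.86 and 1.48 at D30, and 3.83 and 4.78 at D180. With a normexp background correction the log2 FCs were 0.94, 0.88, and 2.58, so that D1 and D30 fell short of 2-fold.
LOC689770 differed in the same direction, with log2 FCs of 1.55 ± 0.29 (limma, adjusted p = 2.5e-04), 1.67 ± 0.29 (adjusted p = 3.3e-04), and 4.09 ± 0.29 (adjusted p = 4.5e-12), and the groups did not overlap. LOC689800 had log2 FCs of 0.48, 0.25, and 0.69, of which the D180 value passed the test (adjusted p = 0.032). How far the LOC689757 signal is its own RNA or that of LOC689770 was not tested.

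**Figure D1:**
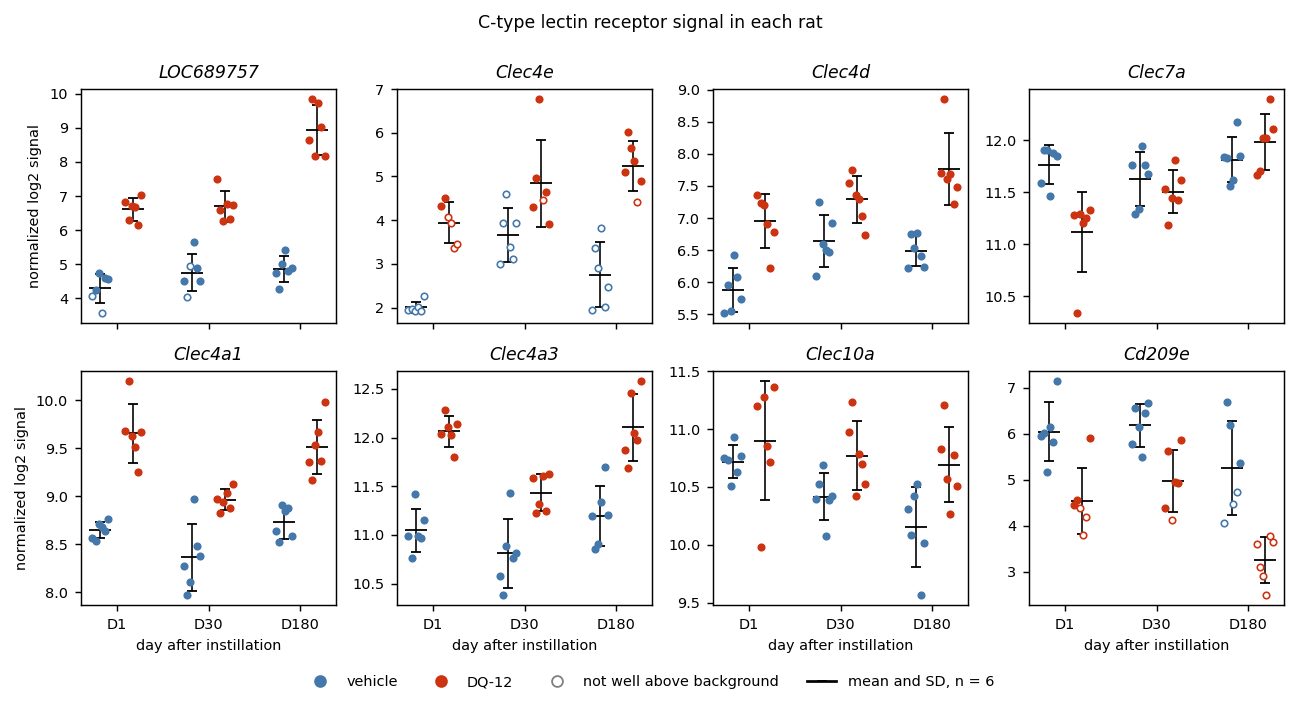
Normalized log2 signal of each rat (y axis) by day after instillation (x axis) for the 8 receptor genes, with vehicle in blue, DQ-12 in red, open points for arrays on which the probe was not well above background, and black bars for the mean and SD (n = 6). The 6 DQ-12 rats of LOC689757 sit between 8.16 and 9.84 at D180, above all vehicle rats, while Cd209e was not well above background in any DQ-12 rat at D180.

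Clec4e encodes Mincle, an activating receptor for mycobacterial glycolipids and for SAP130, a nuclear protein released by dying cells. Its probe was dim, and it was well above background on 0 of 18 vehicle arrays. At D1 the log2 signal ran from 1.92 to 2.25 (median 1.96) in vehicle rats and from 3.36 to 4.51 (median 4.00) in DQ-12 rats, 2 of which were well above background. Values at D30 spanned from 2.99 to 4.60 (median 3.66) and from 3.92 to 6.77 (median 4.55), and at D180 from 1.95 to 3.81 (median 2.68) and from 4.42 to 6.03 (median 5.22), with 5 of 6 DQ-12 arrays well above background each time. The groups did not overlap at D1 and D180, and at D30 3 of the 6 DQ-12 rats exceeded every vehicle rat.
Since no vehicle array was well above background, the size of the Clec4e difference was not measured. Vehicle values were raised, where lower, to the lowest signal well above background of any probe on their array. Against these, the DQ-12 means were 3.20-fold higher at D1, 2.27-fold at D30, and 5.50-fold at D180. These folds are not lower limits, since normexp correction gave smaller ones. The fitted log2 FCs were 1.94 ± 0.36, 1.18 ± 0.36, and 2.49 ± 0.36. One DQ-12 rat at D30 stood above the others (6.77, the next at 4.95), and without it the log2 FC at D30 was 0.79. Within shared scan days the difference was 2.02 at D1, 1.16 and 0.88 at D30, and 2.70 and 1.06 at D180. With normexp correction the log2 FCs were 0.30, 0.27, and 0.56.

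Clec4d encodes MCL, the partner that pairs with Mincle and helps bring it to the cell surface. At D1 its log2 signal ran from 5.52 to 6.42 (median 5.85) in vehicle rats and from 6.22 to 7.36 (median 7.05) in DQ-12 rats. For D30 the span was from 6.10 to 7.25 (median 6.54) and from 6.74 to 7.74 (median 7.33), and at D180 from 6.22 to 6.77 (median 6.47) and from 7.22 to 8.85 (median 7.65). The number of DQ-12 rats that exceeded every vehicle rat was 5, 4, and 6, so that D180 was free of overlap.
The log2 FC was 1.07 ± 0.23 at D1, 0.65 ± 0.23 at D30, and 1.27 ± 0.23 at D180. A second probe of the gene gave 0.94, 0.52, and 1.24, with an SE of 0.24. The difference between the D180 and D30 effects was 0.62 (95% interval -0.03 to 1.27). Within shared scan days the difference was 1.40 at D1, 0.35 and 0.80 at D30, and 1.55 and 0.47 at D180. With normexp correction the log2 FCs were 0.56, 0.35, and 0.78, all under 2-fold.

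Clec4a1 (Dcir4) and Clec4a3 (Dcir3) belong to the DCIR family, named after an inhibitory receptor of dendritic cells, and lie next to each other at the other end of the cluster. The log2 signal of Clec4a1 at D1 ran from 8.54 to 8.76 (median 8.66) in vehicle rats and from 9.26 to 10.20 (median 9.65) in DQ-12 rats. The D30 signals went from 7.98 to 8.97 (median 8.33) and from 8.83 to 9.13 (median 8.96), and at D180 from 8.52 to 8.92 (median 8.74) and from 9.17 to 9.99 (median 9.45). The groups were separate at D1 and D180 and overlapped at D30.
The log2 FCs of Clec4a1 were 1.01 ± 0.14, 0.60 ± 0.14, and 0.78 ± 0.14. The effect at D30 was lower than at D1 by 0.41 on the log2 scale (95% interval of the difference -0.81 to -0.01).
Clec4a3 gave a similar course. At D1 its signal ran from 10.77 to 11.42 (median 10.99) in vehicle rats and from 11.80 to 12.28 (median 12.07) in DQ-12 rats, without overlap. By D30 signals extended from 10.39 to 11.43 (median 10.79) and from 11.23 to 11.63 (median 11.45), and at D180 from 10.85 to 11.70 (median 11.20) and from 11.69 to 12.58 (median 12.01). At these time points 3 and 5 of the 6 DQ-12 rats exceeded every vehicle rat.
The log2 FCs of Clec4a3 were 1.02 ± 0.16, 0.63 ± 0.16, and 0.91 ± 0.16, and its second probe gave 0.84, 0.64, and 0.96. Both genes sat near a 2-fold difference at D1, and leaving out 1 rat could move either below it. The lowest values were 0.90 for Clec4a1, without the DQ-12 rat of replicate 2, and 0.96 for Clec4a3, without the vehicle rat of replicate 2. Within shared scan days the difference for Clec4a1 was 0.94 at D1, 0.60 and 0.44 at D30, and 0.55 and 0.85 at D180. That for Clec4a3 was 0.64 at D1, 0.61 and 0.31 at D30, and 0.86 and 1.13 at D180.

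In the array annotation (rn4), the stretch chr4:159436189-159904004 from the Clec4a1 probe to the Clec4e probe holds 8 tested genes, 4 of the receptors above and 4 other C-type lectin genes. In order they are Clec4a1, Clec4a3, Clec4a2, Clec4a, Clec4b2, Clec6a-ps1, Clec4d, and Clec4e. Of the 4 genes between, 3 were called higher at D1 (0 of them with scan day as a block), 0 at D30 (of which Clec4a2 had an adjusted p = 0.014 at a log2 FC of 0.69), and 2 at D180. The shares of all genes called higher were 2.02, 0.915, and 2.86%.
Clec4a, the DCIR gene itself, had log2 FCs of 1.60 ± 0.31 at D1 (limma, adjusted p = 4.3e-04), 0.76 ± 0.31 at D30 (adjusted p = 0.19), and 2.32 ± 0.31 at D180 (adjusted p = 1.5e-06). Clec4a2 rose by 1.18 ± 0.17 at D1 (adjusted p = 6.9e-06) and by 0.57 ± 0.17 at D180 (adjusted p = 0.015). Clec4b2 rose by 1.14 ± 0.23 at D1 (adjusted p = 6.4e-04) and had 0.30 and 0.34 at D30 and D180 (adjusted p = 0.60 and 0.36). Clec6a-ps1, a pseudogene of the Dectin-2 gene, was not well above background in any vehicle rat. Its signal was higher at D180 (limma, adjusted p = 2.2e-08), where 1 of 6 DQ-12 arrays was well above background. The D180 log2 FC was 0.49 with normexp correction and 0.77 with median intensity, both under 2-fold, so no size is given. With scan day as a block, the D1 log2 FCs were 0.77 for Clec4a (adjusted p = 0.60), 0.96 for Clec4a2 (adjusted p = 0.11), and 0.98 for Clec4b2 (adjusted p = 0.35).

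**Figure D2:**
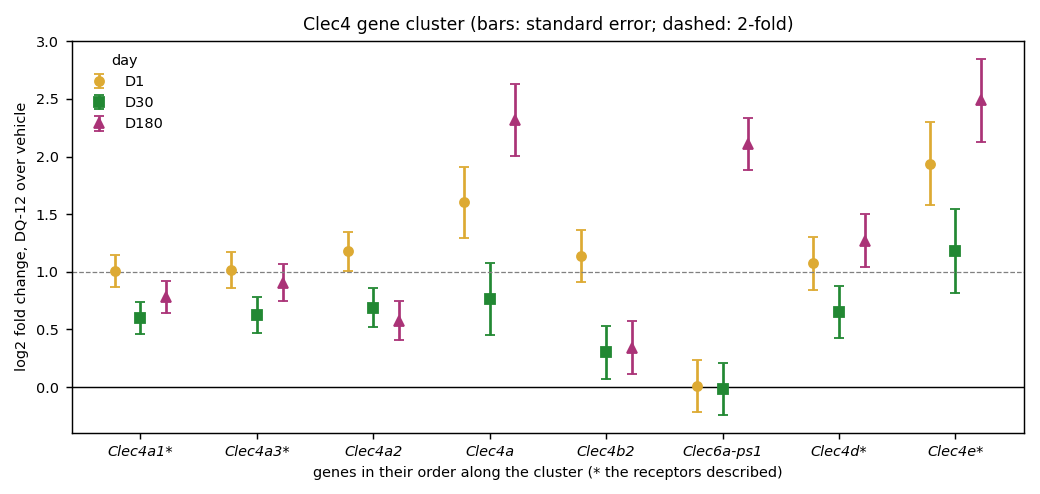
Log2 FC of DQ-12 over vehicle (y axis, with standard error) at D1, D30, and D180 for the 8 tested genes of the Clec4 cluster in their order along the chromosome (x axis). At D180 Clec4a stands at 2.32, whereas Clec4a1, Clec4a3, Clec4a2, and Clec4b2 lie between 0.34 and 0.91. Points of Clec4e and Clec6a-ps1 are fitted values against vehicle arrays that were not well above background, so their heights are not measured sizes.

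Clec7a encodes Dectin-1, the beta-glucan receptor, which carries its own ITAM-like motif. At D1 the log2 signal ran from 11.47 to 11.91 (median 11.86) in vehicle rats and from 10.34 to 11.33 (median 11.27) in DQ-12 rats, without overlap. In the D30 groups it spanned from 11.29 to 11.95 (median 11.72) and from 11.19 to 11.81 (median 11.49), and at D180 from 11.56 to 12.18 (median 11.84) and from 11.66 to 12.40 (median 12.02), and 1 of the 6 DQ-12 rats was outside the vehicle range in the direction of the difference each time.
The log2 FC was -0.65 ± 0.15 at D1, -0.13 ± 0.15 at D30, and 0.17 ± 0.15 at D180. The D180 effect was higher than the D1 effect by 0.82 (95% interval 0.39 to 1.26). One DQ-12 rat at D1 was far below the others (10.34, the next at 11.20), and without it the log2 FC was -0.50. A second probe gave -0.38 ± 0.22, -0.17 ± 0.22, and 0.13 ± 0.22. Arrays of shared scan days differed by -0.79 at D1, -0.19 and -0.12 at D30, and 0.13 and 0.56 at D180.

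Clec10a encodes MGL1, a receptor of macrophages and dendritic cells that takes up galactose-bearing glycoproteins. At D1 its log2 signal ran from 10.51 to 10.93 (median 10.74) in vehicle rats and from 9.98 to 11.36 (median 11.03) in DQ-12 rats. D30 signals ranged from 10.08 to 10.69 (median 10.41) and from 10.42 to 11.23 (median 10.74), and at D180 from 9.57 to 10.53 (median 10.19) and from 10.27 to 11.21 (median 10.67). The groups overlapped at all 3 time points, with 3, 4, and 4 of the 6 DQ-12 rats above every vehicle rat.
The log2 FC was 0.18 ± 0.19, 0.35 ± 0.19, and 0.54 ± 0.19. The intervals were -0.20 to 0.56 at D1, -0.03 to 0.73 at D30, and 0.16 to 0.92 at D180. The difference within shared scan days was 0.39 at D1, 0.26 and 0.40 at D30, and 0.45 and 0.69 at D180. The DQ-12 rat that was low for Clec7a at D1 was also the low one for Clec10a (9.98).

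Cd209e, a relative of the DC-SIGN gene, was the member that was lower in DQ-12 lungs at each time point. At D1 its log2 signal ran from 5.16 to 7.14 (median 5.98) in vehicle rats and from 3.79 to 5.90 (median 4.42) in DQ-12 rats. The range at D30 was from 5.50 to 6.66 (median 6.30) and from 4.13 to 5.86 (median 4.94), and at D180 from 4.07 to 6.69 (median 5.05) and from 2.50 to 3.77 (median 3.35). The number of DQ-12 rats lower than every vehicle rat was 5, 4, and 6.
The log2 FC was -1.49 ± 0.39 at D1 and -1.20 ± 0.39 at D30. At D180 the fitted signal was 3.99-fold lower. The probe was well above background there on 0 of 6 DQ-12 arrays and 3 of 6 vehicle arrays, so this fold is not a measured size. A second probe, well above background on 4 of 36 arrays, gave -0.15 ± 0.44, -0.35 ± 0.44, and -0.68 ± 0.44. Within shared scan days the difference was -0.62 at D1, -1.44 and -0.84 at D30, and -1.70 and -2.92 at D180. With normexp correction the log2 FCs were -0.51, -0.51, and -0.56, and with median intensity -0.73, -0.64, and -0.78, all under 2-fold.

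**Figure D3:**
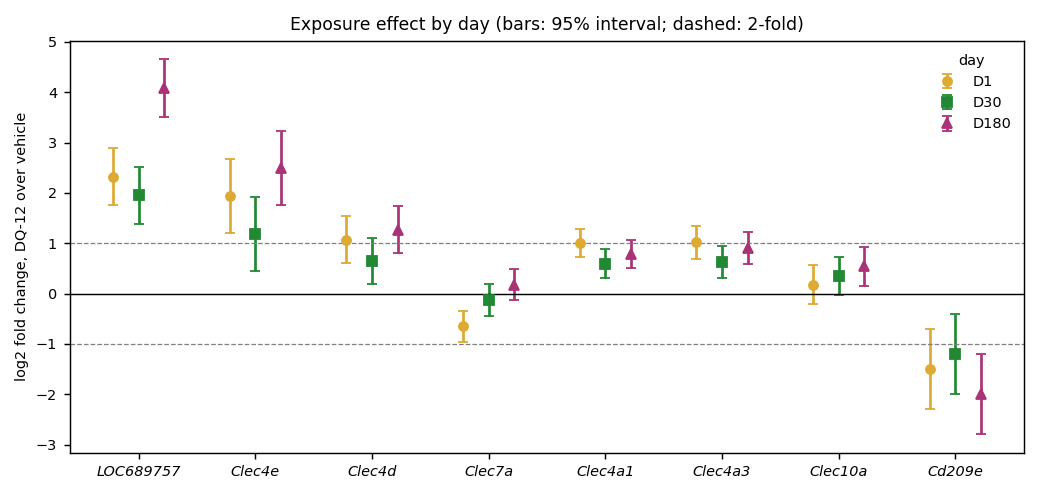
Log2 FC of DQ-12 over vehicle (y axis) with its 95% interval for the 8 receptor genes (x axis) at D1, D30, and D180, with dashed lines at a 2-fold difference. LOC689757 reaches 4.08 at D180, Clec7a is below 0 at D1 and near 0 later, and Cd209e is below 0 at all 3 time points. Points of Clec4e, and that of Cd209e at D180, are fitted values where 1 group was not well above background.

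Against the thresholds used for DEGs (FC of at least 2 and adjusted p under 0.05), 5 of the 8 genes were higher and 1 lower at D1, where 2.02% of all genes tested were called higher and 1.05% lower. The 5 were LOC689757, Clec4e, Clec4d, Clec4a1, and Clec4a3, and the lower one was Cd209e. At D30, 1 was higher (LOC689757) and 0 lower, against 0.915% and 0.138% of all genes. At D180, 3 were higher (LOC689757, Clec4e, and Clec4d) and 1 lower (Cd209e), against 2.86% and 0.773%. With scan day as a block, which leaves 1 vehicle array as the link at D1, 0 of 8 met the thresholds at D1, 1 at D30, and 4 at D180.
The DQ-12 group was wholly above the vehicle group for 4 of the 8 genes at D1, 1 at D30, and 4 at D180, where 5.23, 1.81, and 3.82% of all genes did. It was wholly below for 1, 0, and 1 gene, where 5.96, 0.547, and 3.45% of all genes did. Clec7a was the gene below at D1, and its difference was under 2-fold. Since the genes were selected on these contrasts, nothing is read from these shares.

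Vehicle rats were also compared over time. The time points did not share slides or scan days, so time cannot be told apart from either in this comparison. These are the same vehicle arrays as in the contrasts that chose the genes, so the counts are a description and not independent of the choice. Between D1 and D30, 2 of the 8 genes passed the test (limma, adjusted p under 0.05), where 6.53% of all genes did. Clec4d was higher at D30 by 0.76 ± 0.23 (95% interval 0.30 to 1.22). The other was Clec4e, for which no difference is given because it was below the background threshold in both groups. Between D1 and D180, 1 of 8 passed, against 10.6% of all genes. Clec10a was lower at D180 by 0.57 on the log2 scale (-0.57 ± 0.19, 95% interval -0.95 to -0.19). This did not pass with the slide or scan day as a random block or in 8 of 12 refits without 1 rat. Between D30 and D180, 0 of 8 passed, against 11.5% of all genes, and 4 had an unadjusted p under 0.05 (Clec4e, Clec4a1, Clec4a3, and Cd209e).

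To see which genes varied with each receptor from rat to rat, group means were subtracted and Pearson's r was taken over the 36 arrays, among 23734 genes without missing values. These correlations are descriptions, and the arrays share slides and scan days. LOC689757 was closest to LOC689770 (r = 0.81), then Arpin (0.77) and Cyba (0.76), a subunit of the phagocyte NADPH oxidase. Clec4d was closest to Hsph1 (0.73), Il1r2 (0.72), the decoy receptor for interleukin-1, and Mmp8 (0.71), the neutrophil collagenase.
Clec4a1 was closest to C3ar1 (0.77), the receptor for complement C3a, and to its neighbors Clec4a3 (0.74) and Clec4a2 (0.73). Clec4a3 was closest to LOC690097 (0.83), which is described as similar to a Ly49 receptor, Clec4a2 (0.77), and Cyp2d1 (0.75).
Genes close to Clec7a included Rit1 (0.79) and Edil3 (0.77), and Clec10a was closest to Brd7 (0.81), Scamp1 (0.80), and Mgme1 (0.78). Clec4e (LOC102547071, Lonrf2, and Cox7b2, 0.64 to 0.65) and Cd209e (Herpud1, Spink2, and Carnmt1, 0.63 to 0.71) had lower values, and both were dim. Among the 28 pairs of the 8 receptors, r ran from -0.51 to 0.74 with a median of -0.05. The highest were Clec4a1 with Clec4a3 (0.74) and Clec4e with Clec4d (0.55).

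Of 52 other C-type lectin genes named on the array, 49 were tested. At D1, 4 were called higher and 0 lower, at D30, 2 higher and 0 lower, and at D180, 6 higher and 0 lower. Over all genes, 2.02, 0.915, and 2.86% were called higher and 1.05, 0.138, and 0.773% lower. With scan day as a block, 1 (Clec5a), 2, and 6 of the 49 were called. By adjusted p alone, 5 rose and 7 fell at D1, 7 and 2 at D30, and 12 and 7 at D180. The share of all genes passing by adjusted p alone is not given here, so nothing is read from these counts. The median log2 FC was -0.07, 0.04, and 0.13, beside -0.01, -0.02, and -0.03 over all genes.
Clec5a, which encodes MDL-1, a receptor that signals through DAP12, was called at all 3 time points. It rose by 1.32 ± 0.24 (adjusted p = 1.7e-04), 1.40 ± 0.24 (adjusted p = 2.9e-04), and 1.66 ± 0.24 (adjusted p = 3.9e-06), without overlap between the groups. With normexp correction these log2 FCs were 0.66, 0.80, and 0.90, all under 2-fold. Median intensity gave 0.90 at D1 and 0.97 at D30. Clec9a, a dendritic cell receptor for actin of dead cells, had 1.40 ± 0.25 at D30 (adjusted p = 4.6e-04) and 1.31 ± 0.25 at D180 (adjusted p = 2.2e-04), where 3 of 6 rats lay above all vehicle rats. With the median of its probes, the D180 log2 FC was 0.73 (limma, adjusted p = 0.049), under 2-fold. Normexp correction gave Clec9a 0.94 at D30 and 0.92 at D180. Clec12a, an inhibitory receptor, rose by 1.08 ± 0.15 at D180 (adjusted p = 3.4e-06). It was under 2-fold with normexp correction (0.86) and with median intensity (0.92). Sele, the endothelial E-selectin, rose by 2.06 ± 0.35 at D180 (adjusted p = 4.5e-05).
The genes that fell by adjusted p stayed under 2-fold. Clec1b, the CLEC-2 gene of platelets, fell by 0.46, 0.44, and 0.96 on the log2 scale (adjusted p = 0.0078, 0.034, and 5.4e-07). Clec14a, an endothelial gene, fell by 0.45 at D1 and by 0.79 at D180 (adjusted p = 0.019 and 6.0e-05), and the 6 endothelium markers had a median log2 FC of -0.28 and -0.61 there.

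Downstream of the activating receptors, 13 genes of ITAM and CARD9 signaling were examined. By adjusted p, 1 rose at D1, 4 at D30, and 9 at D180, and 0 fell. The share of all genes passing by adjusted p alone is not given here. Of the 13, 2 exceeded 2-fold, both at D180, where 2.86% of all genes were called higher. Card9 had log2 FCs of 0.51 ± 0.19 (adjusted p = 0.067) at D1 and 1.10 ± 0.19 at D180 (adjusted p = 7.8e-05). Its D180 value was 0.69 with normexp correction and 0.83 with median intensity, both under 2-fold. Btk reached 1.00 ± 0.18 at D180 (adjusted p = 1.4e-04), at the edge of the threshold, was 0.92 with scan day as a block, and 5 of the 12 refits without 1 rat put it below. Tyrobp, the DAP12 adaptor, rose by 0.49 ± 0.12 at D30 (adjusted p = 0.012) and 0.85 ± 0.12 at D180 (adjusted p = 2.0e-06). Syk rose at D180 by 0.68 ± 0.16 (adjusted p = 0.0026). Bcl10 had 0.26, 0.33, and 0.02 at the 3 time points and did not pass the test.
Of 3 phosphatases recruited by ITIM receptors, 2 rose (Ptpn6 by 0.40 and Inpp5d by 0.44) and 1 fell (Ptpn11 by 0.29) at D180, all under 2-fold (adjusted p = 0.0074, 0.030, and 0.014). Sf3b3, which encodes SAP130, the ligand of Mincle, rose by 0.44 ± 0.09 at D1 (adjusted p = 0.0010).

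**Figure D4:**
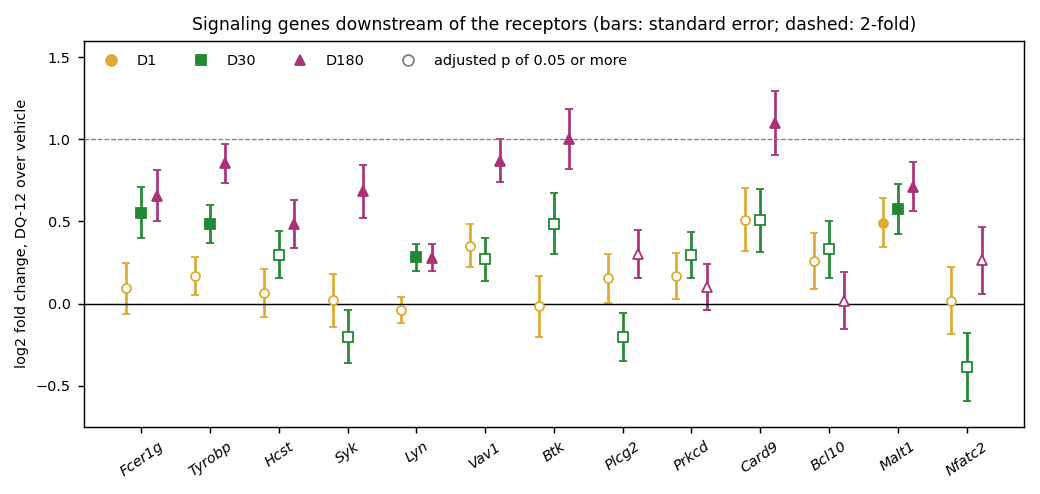
Log2 FC of DQ-12 over vehicle (y axis, with standard error) for 13 signaling genes (x axis) at D1, D30, and D180, with open symbols where the adjusted p was 0.05 or more. At D180, 9 of the 13 have filled symbols, and Card9 (1.10) and Btk (1.00) reach a 2-fold difference. Both were under 2-fold with normexp correction (0.69 and 0.97).

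Of 17 cytokine and enzyme genes known as targets of this signaling, 3 were called higher at D1, 7 at D30, and 7 at D180, and 0 lower. Over all genes, 2.02, 0.915, and 2.86% were called higher. With scan day as a block, 1, 6, and 9 of the 17 were called, and at D1 Cxcl2 (0.81, adjusted p = 0.74) and Ccl3 (0.79, adjusted p = 0.29) did not pass. The median log2 FC of the 17 was 0.40, 0.83, and 0.89. Ccl2, the monocyte chemokine, had the largest values, 2.56 ± 0.24 (adjusted p = 3.3e-09), 2.80 ± 0.24 (adjusted p = 2.2e-09), and 4.54 ± 0.24 (adjusted p = 2.3e-14). Il1rn, the interleukin-1 receptor antagonist, rose by 2.57 ± 0.16 at D180 (adjusted p = 2.9e-13). Il12b was higher at D30 (limma, adjusted p = 2.3e-04), with 5 of 6 DQ-12 and 0 of 6 vehicle arrays well above background. The size of that difference is uncertain, as the log2 FC was 0.45 with normexp correction and 0.72 with median intensity. Cxcl2 rose by 1.99 ± 0.37 at D180 (adjusted p = 1.6e-04). Ccl3 rose by 1.99 ± 0.17 at D180 (adjusted p = 2.3e-10). Ptgs2 had 0.10, 0.20, and 0.11 and did not pass. These genes respond to many other receptors too.

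Markers of the cells that carry these receptors were measured in the same arrays. Of 12 neutrophil markers, 3 were called higher at D1, 3 at D30, and 7 at D180, or 0, 2, and 5 with scan day as a block. For this and the next marker lists, the shares of all genes called higher were 2.02, 0.915, and 2.86%. Lcn2 varied most (at D1, mean 9.46 and SD 2.45 in vehicle, 14.1 and 2.44 in DQ-12 rats), so it weighs heavily in the mean below. By direction alone, 9 of the 12 markers were higher and 3 lower at D1, 9 and 3 at D30, and 11 and 1 at D180. Their mean log2 signal ran from 7.18 to 7.79 in vehicle and from 7.82 to 8.74 in DQ-12 rats at D1, from 7.02 to 7.95 and from 8.08 to 8.73 at D30, and from 6.82 to 7.94 and from 8.54 to 9.40 at D180. Ltf stayed below that level of detection throughout the 36 arrays, and Fpr1 fell at D30 and D180 (by 0.95 and 0.57, adjusted p = 0.0024 and 0.037).
Of 11 macrophage markers, 0 were called at D1 (limma, 5 with an unadjusted p under 0.05), 4 were called higher at D30, and 4 at D180. By adjusted p alone, 2 were higher and 2 lower at D1. The means ran from 8.99 to 9.31 in vehicle and 9.23 to 9.32 in DQ-12 rats at D1, 8.80 to 9.10 and 9.26 to 9.80 at D30, and 9.17 to 9.52 and 9.81 to 10.1 at D180. Cd68, Siglec1, Marco, and Msr1 were the 4 called at D30 and D180, and Cd163 fell by 0.89 at D180 (adjusted p = 0.0019).
Of 8 monocyte markers, 0 were called at D1, where 4 were higher and 0 lower by adjusted p alone (limma). Cd14 and Itgam were called at D180. The means ran from 9.49 to 10.0 in vehicle and 9.97 to 10.6 in DQ-12 rats at D1 and from 9.37 to 9.98 and 10.1 to 10.6 at D180. Of 9 dendritic cell markers, Cd86 was called at D1 and D180, but 0 markers were called at D1 with scan day as a block. In the lists for T and NK cells, B cells, alveolar epithelium, endothelium, and skeletal muscle, 0 of 33 genes met the thresholds at any time point (limma), and 11, 6, and 12 had an unadjusted p under 0.05 at D1, D30, and D180. Of these, 5 of 6 endothelium markers fell by adjusted p at D180. Within groups, Clec4d varied with the neutrophil mean (r = 0.51 over 36 arrays), and Clec4e had r = 0.32 with the neutrophil, -0.45 with the macrophage, and -0.32 with the dendritic cell mean. These means were not scaled per gene, so Lcn2, the marker with the largest spread, weighs most in the neutrophil mean. LOC689757 had -0.08 with the neutrophil mean, and Clec4a1 and Clec4a3 had 0.37 and 0.30 with the monocyte mean. The part of a changed cell content in the receptor differences was not tested.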

How the data were processed

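Gene expression was measured in 36 rat lungs on Agilent single-color arrays. The authors extracted the array scans with Agilent Feature Extraction 12.0.1.1, and the deposited files hold processed signal, mean or median signal, and background as intensity per spot, with other columns of quality flags. A deposited series table holds log2 values. The main values were log2 processed intensity without outlier spots (232 to 596 per array), averaged per probe and quantile normalized. Probes above the 95th percentile of 308 negative control spots on at least 6 arrays were kept, and the brightest probe stood for a gene. R 4.3.3 and limma 3.58.1 fitted the 6 group means, with Benjamini-Hochberg adjustment over all 23940 genes. Genes with a fold change of 2 or more and an adjusted p under 0.05 were called. SE values are those of the fit with n = 6 per group, and the number of arrays limits the precision.
The 8 genes and all lists were chosen with earlier results of these data known. The text names all 8 genes, up to 3 genes most like each, the other genes of the Clec4 cluster, and members of the lists as called or as examples. The fit was tested on simulated data. A few items of these lists are not reported here. Alternatives were other background corrections, scalings, filters, probe rules, folds, blocks, and each rat left out. Promoter sequences are from RefSeq (GRCr8), and array positions are on rn4.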

Additional observations from a re-analysis of the deposited data

Results flagged for a closer look

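In 5 of 48 groups of 6 rats, 1 rat stood apart from the others for a receptor gene, where chance flags about 1 in 20 groups. On the log2 scale these were Clec4e in a vehicle rat at D1 (2.25, nearest 2.02), Clec4e in a DQ-12 rat at D30 (6.77, nearest 4.95), and Clec4d in a DQ-12 rat at D180 (8.85, nearest 7.70). The others were Clec7a in a DQ-12 rat at D1 (10.34, nearest 11.20) and Cd209e in another DQ-12 rat at D1 (5.90, nearest 4.56).

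For genes outside the 8 receptors, the DQ-12 effect differed between time points in 20 cases by limma's interaction test. Most cases involve the D1 effect, which can hardly be separated from scan day. These differences were not fitted with scan day as a fixed block, so time and scan day cannot be told apart in them. The values are differences of log2 FCs. From D1 to D30 the effect moved upward for Cd302 by 0.93 (adjusted p = 0.0021) and Cxcl1 by 1.93 (adjusted p = 0.0039). It changed by -0.48 for Ptpn11 (adjusted p = 0.023) and -0.56 for Sf3b3 (adjusted p = 0.017). At D1, Cd302 and Cxcl1 had lower mean log2 signals in DQ-12 than in vehicle rats (12.3 against 12.7 and 10.8 against 11.5). Both means were higher in DQ-12 rats at D30, so these effects changed sign. From D30 to D180 it increased for Il1rn by 1.45 (adjusted p = 0.0023) and Ccl2 by 1.75 (adjusted p = 0.018).
Between D1 and D180, the effect moved upward for 4 C-type lectin or adaptor genes. They were Cd302 by 0.99 (adjusted p = 6.3e-04), Clec12a by 0.80 (adjusted p = 0.028), Selp by 1.09 (adjusted p = 0.046), and Tyrobp by 0.68 (adjusted p = 0.013). Cd302 and Selp changed sign, with lower means in DQ-12 than in vehicle rats at D1 (12.3 against 12.7 and 8.95 against 9.23) and higher means at D180. The kinase gene Btk had 1.02 (adjusted p = 0.019), and the phosphatase gene Ptpn11 had -0.50 (adjusted p = 0.011). Among the targets, the differences were 1.72 for Il12b (adjusted p = 0.026), 1.59 for Il1rn (adjusted p = 4.9e-05), 1.65 for Cxcl1 (adjusted p = 0.0083), 1.98 for Ccl2 (adjusted p = 6.3e-04), 0.90 for Ccl3 (adjusted p = 0.024), and 1.38 for Egr2 (adjusted p = 0.032). Cxcl1 and Egr2 changed sign too, with lower means in DQ-12 rats at D1 (10.8 against 11.5 and 7.13 against 7.54). Clec6a-ps1 also passed, with fitted differences of 2.12 from D30 to D180 and 2.10 from D1 to D180, but it was well above background on 0 arrays at D1 and D30 and on 1 array at D180, so these values rest on signals at the floor and give no measured size.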

How the results depend on the processing

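No log2 FC of the 8 receptors changed sign under any alternative that gave a value. Of 597 alternative values, 567 moved by less than the spread between rats and 30 moved by more. Part of the 567 could hardly move. A fold of 1.5 changes the threshold only, and fitting each day alone or with a replicate block leaves the group differences nearly as they were. Many others left out 1 rat, so the 567 is no measure of stability to the processing. The counts past the thresholds depended more on the processing, and the cause was not tested. At D1, 6 of the 8 receptors were called in the main analysis, 1 with median intensity without background correction, 0 with normexp correction, 1 with the slide as a block, 0 with the scan day as a block, and 3 with either as a random block. At D30 (1 called), the count was 0 with normexp correction, 2 with scaling to the 75th percentile and also with the deposited log2 table, and 3 at a fold of 1.5. At D180 (4 called), it was 1 with median intensity, with normexp correction, and with the slide as a block. Only 1 slide at D1 and 1 at D180 held both groups, so the fits with a slide block rest on few arrays.
For the 49 other C-type lectin genes, 4 called at D1 became 0 with median intensity or normexp correction, 1 with a slide or scan day block, and 7 at a fold of 1.5. The 2 at D30 became 1 with median intensity or a slide block, 0 with normexp correction, and 6 at a fold of 1.5. The 6 at D180 became 2 with normexp correction, 3 with a slide block, and 14 at a fold of 1.5.
With the replicate block, 3 receptors were called at D30 instead of 1, with Clec4e and Cd209e added. Same-numbered rats correlated by -0.13 to 0.22 over the 3 time points. No correlations of differently numbered rats are set beside these, so they cannot show whether replicate numbers pair the rats. Leaving out each rat in turn gave 4 to 6 receptors called at D1, 1 to 2 at D30, and 4 to 5 at D180, and 3 to 5, 2 to 4, and 5 to 7 other C-type lectin genes. Clec4a1 lost its call at D1 without vehicle replicate 1, vehicle replicate 2, or DQ-12 replicate 2, Clec4a3 without vehicle replicate 2 or DQ-12 replicate 2, and Clec4d without DQ-12 replicate 1.
The vehicle difference of 1 receptor between D1 and D180 became 0 with 75th percentile scaling, the deposited log2 values, the median of probes, and both random blocks, and 0 to 1 when a rat was left out. It could not be fitted with slide or scan day as a fixed block, because each holds 1 time point. Clec4e was not tested when the filter asked for a probe well above background throughout a group. The Clec4e and Cd209e probes were dim, which limits the precision of their values.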
